A study of Mus musculus with 9 samples.

Results

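Expression of 8 genes of epithelial cell junctions and of the apical cell surface was followed across fetal mouse gonads with and without the transcription factor SOX9. They were Cldn11, Ocln, Tjp1 and Cgn of the tight junction, Dsc2, Jup and Dsp of the desmosome, and Podxl of the apical surface. The genes were chosen from a list of junction and surface proteins with values of the comparison of Sox9-deleted with control testis already known, among them the large rises of Cgn, Dsc2 and Podxl and the large fall of Cldn11. All 8 were found by symbol among the 15300 genes of each of the 3 deposited tables.

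Gene expression had been measured by RNA sequencing of whole gonads, freed of the mesonephros, from C57BL/6 fetuses at E13.5 (days of development after conception), with 3 samples in each of 3 groups. XY-WT were testes of genotype XY Sox9flox/flox wildtype, XX-WT were ovaries of genotype XX Sox9flox/flox wildtype, and XY-KO were testes of genotype XY AMH-Cre; Sox9flox/flox. All 3 groups thus carried the floxed Sox9 alleles, and XY-KO alone is labelled with Cre, under the promoter of the Sertoli cell hormone AMH. Cre under that promoter acts once a Sertoli cell has begun to express AMH, so SOX9 can have been present before the deletion. Whether a sample was a single fetus or a pool is not stated in the labels, and the p-values describe the spread between these samples.

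Sox9 was 6.78-fold lower in XY-KO than in XY-WT in the authors' deposited table, a log2 change of -2.76 (SE 0.172). The tissue labels held against their markers: 7 of 7 measured ovarian supporting cell genes were higher in XX-WT than in XY-WT and 9 of 10 Sertoli cell genes were lower. Of all genes, 10.9% were called higher and 12.4% lower in that comparison. The deposited values used were group comparisons with no value per sample, so levels in single samples are not shown, the depth is unknown here, and each group level was worked out from the overall mean plus the fold changes. A whole gonad mixes Sertoli or pre-granulosa cells with germ, interstitial, endothelial and surface cells, and a lower level of a gene from fewer cells of a type and from less RNA per cell cannot be told apart.

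Tight junctions seal the space between neighbouring epithelial cells. Claudins form their strands, occludin is a further membrane protein of the strand, and plaque proteins such as ZO-1 and cingulin tie the strands to actin. Desmosomes anchor intermediate filaments at the cell border through desmosomal cadherins, plakoglobin and desmoplakin. In the testis, Sertoli cells are epithelial cells that enclose the germ cells in cords, and after birth their tight junctions form the blood-testis barrier.

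The 8 genes did not move as a set. Cldn11 and Dsp were lower without Sox9, Cgn, Dsc2 and Podxl were higher, and Ocln, Tjp1 and Jup did not pass the test. In XY-KO against XY-WT, the limma calls of the authors at an adjusted p under 0.05 took in 3 of the 8 as higher and 2 as lower, where 0.699% of all 15300 genes were called higher and 1.57% lower. Since values of this comparison chose members, the counts describe the choice and carry no weight of their own. In XX-WT against XY-WT, 4 of the 8 were called higher in the ovary and 3 lower, beside 10.9% and 12.4% of all genes. In XY-KO against XX-WT, 1 was called higher in XY-KO and 5 lower, beside 9.16% and 9.11% of all genes. The median log2 difference of the 8 was -0.05, 0.61 and -0.64 in these comparisons in turn, beside medians of -0.0115, 0.00414 and -0.00277 over all genes. The comparisons share samples in pairs, so a gene's values in them are not independent of each other. The choice of members through the first comparison can therefore reach the counts and medians of the other comparisons too.

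**Figure D1:**
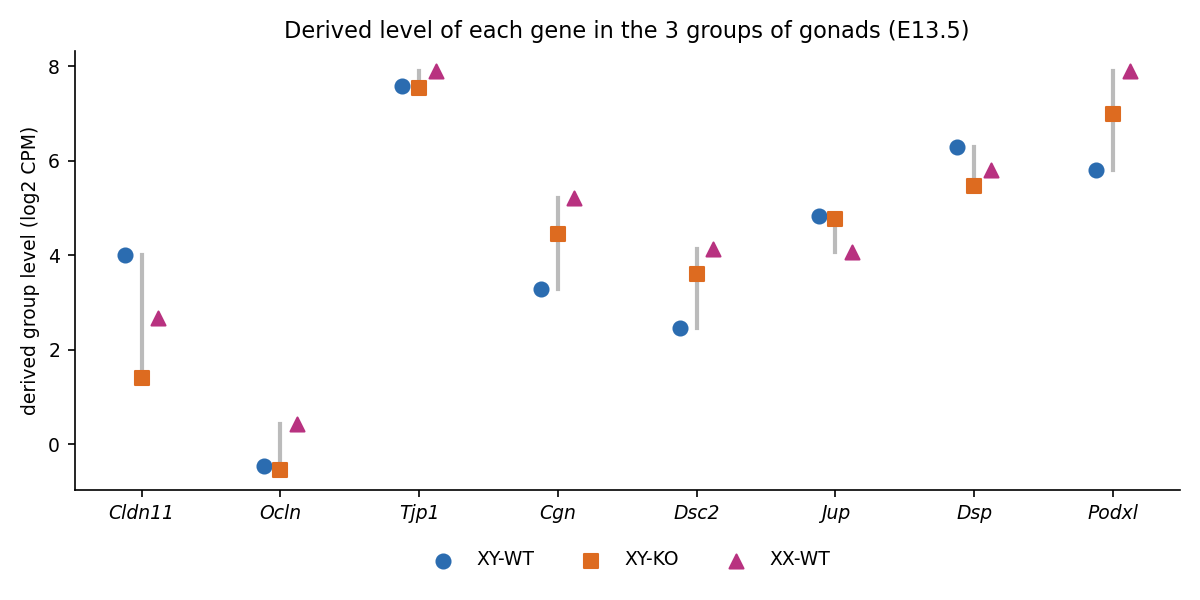
Derived level of each of the 8 genes in XY-WT (circles), XY-KO (squares) and XX-WT (triangles), in log2 CPM (reads of the gene scaled to a common library total); each point stands for a group of 3 samples, and grey lines join the lowest and highest group. Cgn, Dsc2 and Podxl step up from XY-WT through XY-KO to XX-WT, while Cldn11 is lowest in XY-KO.

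Cldn11 (ENSMUSG00000037625, GRCm38 chromosome 3, 31149920 to 31164324, plus strand) encodes claudin-11, the strand protein of Sertoli cell tight junctions and of myelin. Its derived level was 16.2 CPM in XY-WT, 2.63 CPM in XY-KO and 6.40 CPM in XX-WT. The Sox9-deleted testis was therefore lowest, below the ovary as well as the control testis. The authors' deposited table put the XY-KO change from XY-WT at -2.62 on the log2 scale (SE 0.288), a level 6.16-fold lower with a 95% interval of 4.03 to 9.41. In the ovary the gene was lower than in XY-WT by a log2 change of -1.34 in the authors' deposited table (SE 0.224, limma adjusted p 0.00040). Against XX-WT, the XY-KO level was at -1.29 (SE 0.305, limma adjusted p 0.00714), per the authors' deposited table. The ovary thus differed from each testis group beyond the error.

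Cgn (ENSMUSG00000068876, chromosome 3, 94760069 to 94786492, minus strand) encodes cingulin, a cytoplasmic plaque protein that binds ZO proteins and actomyosin. Its derived level was 9.68 CPM in XY-WT, 21.9 CPM in XY-KO and 36.9 CPM in XX-WT, the reverse of the order of the testes seen for Cldn11. The XY-KO change was 1.18 in the authors' deposited table (SE 0.167), or 2.26-fold higher with a 95% interval of 1.77 to 2.89. The ovary was higher than XY-WT by a log2 change of 1.93 (SE 0.160, limma adjusted p 3.66e-07), per the authors' deposited table, and XY-KO was below the ovary at -0.75 (SE 0.142, adjusted p 0.00131). The derived level of XY-KO thus lay between those of the controls, and its distance from the ovary passed the test.

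The promoter windows of Cldn11 and Cgn, which lie on the same chromosome and moved in opposite directions, are shown with that of Dsp, which also fell. Each runs 5′ to 3′ along the gene, from 250 bases before the RefSeq start to 50 bases after it, on GRCm38.p6. Capitals mark a match to any of 3 motifs: ACAAAG and ACAATG, cores bound by SOX proteins, and CACCTG, an E-box form bound by the SNAIL and ZEB repressors of epithelial genes, each read on both strands.
Cldn11, chr3:31149670-31149969, plus strand: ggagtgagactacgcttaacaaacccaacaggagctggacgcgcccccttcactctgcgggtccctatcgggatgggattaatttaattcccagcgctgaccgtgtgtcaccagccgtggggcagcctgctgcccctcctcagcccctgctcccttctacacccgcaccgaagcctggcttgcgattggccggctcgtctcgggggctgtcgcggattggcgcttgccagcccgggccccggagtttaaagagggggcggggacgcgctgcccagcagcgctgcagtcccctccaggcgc
Cgn, chr3:94786433-94786732, minus strand: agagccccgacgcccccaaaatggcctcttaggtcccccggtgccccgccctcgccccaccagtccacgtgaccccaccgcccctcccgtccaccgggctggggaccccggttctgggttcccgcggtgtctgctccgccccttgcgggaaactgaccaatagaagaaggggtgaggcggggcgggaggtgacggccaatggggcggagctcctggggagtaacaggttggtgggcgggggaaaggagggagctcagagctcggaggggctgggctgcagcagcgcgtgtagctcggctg
Dsp, chr13:38151044-38151343, plus strand: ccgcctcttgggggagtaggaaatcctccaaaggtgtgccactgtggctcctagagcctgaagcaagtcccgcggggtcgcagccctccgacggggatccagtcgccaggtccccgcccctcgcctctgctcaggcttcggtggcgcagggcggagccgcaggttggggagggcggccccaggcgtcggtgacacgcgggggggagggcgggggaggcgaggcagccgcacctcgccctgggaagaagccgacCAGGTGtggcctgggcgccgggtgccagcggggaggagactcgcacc
The first and the second hold no capitals, and the third holds the E-box letters on the opposite strand, beginning at base 4 after the start. RefSeq windows were matched for 6 of the 8 genes (Cldn11, Ocln, Tjp1, Cgn, Jup and Dsp), with 7 windows because Ocln has a pair of starts. For Tjp1 and Jup the RefSeq start was not matched in GENCODE, where 0 of 7 and 0 of 9 transcripts held its first bases. The Tjp1 window, at 65371195 to 65371494, lies within the gene's span, so other starts of that gene are not covered. The SOX cores ACAAAG and ACAATG were in 0 of the 7 windows, and in 18.7% and 12.6% of all 32817 windows of this length. CACCTG was in 3 of the 7 windows, those of Dsp and both of Ocln, which overlap and share a match, and in 20.2% of all windows. The 7 windows had 60.7% to 73% GC against a median of 52.7% over all windows. A match is a run of letters and not a bound site, and no match says only that these letters are not in these windows.

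Ocln (ENSMUSG00000021638, chromosome 13, 100496507 to 100552718, minus strand), occludin, was near the lower end of the range, with derived levels of 0.721 CPM in XY-WT, 0.687 CPM in XY-KO and 1.34 CPM in XX-WT. Its error was the widest of the 8 in each comparison. The log2 difference of XY-KO from XY-WT was -0.07 in the authors' deposited table, with a 95% interval of -1.09 to 0.95. A 2-fold fall thus lies within it, and a 2-fold rise just outside. The ovary against XY-WT gave 0.90 (SE 0.423, limma adjusted p 0.143) and XY-KO against the ovary -0.97 (SE 0.412, limma adjusted p 0.127), per the authors' deposited tables. No order of the groups can be read for occludin at this error.

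Tjp1 (ENSMUSG00000030516, chromosome 7, 65296165 to 65527781, minus strand) encodes ZO-1, the scaffold that binds claudins, occludin and cingulin. It had derived levels of 191 CPM in XY-WT, 186 CPM in XY-KO and 238 CPM in XX-WT. The deletion left a log2 difference of -0.03 in the authors' deposited table with a 95% interval of -0.27 to 0.20, so changes beyond 1.20-fold lie outside that interval. The ovary stood above XY-WT by 0.32 (SE 0.108, limma adjusted p 0.0437), per the authors' deposited table and XY-KO below the ovary at -0.35 (SE 0.110, adjusted p 0.0348). The first of these calls ended once a trend of fold change with GC content and transcript length was removed (adjusted p 0.0607) and when p-values were adjusted over the 3 comparisons together (adjusted p 0.0606).

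**Figure D2:**
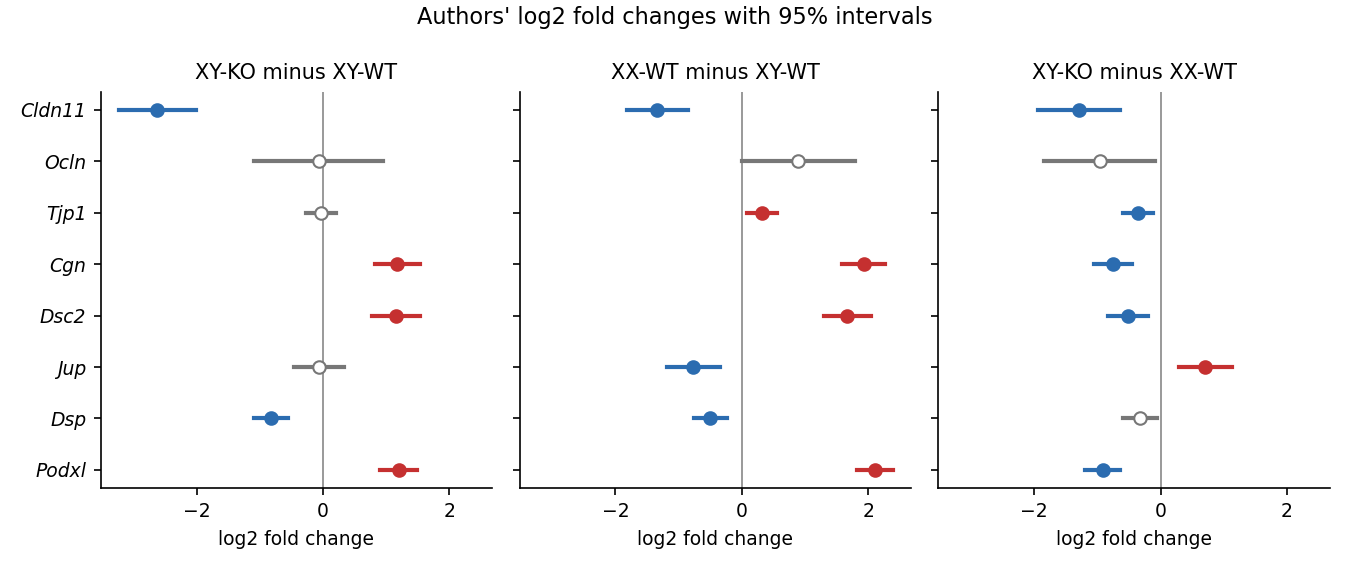
The authors' log2 fold changes (horizontal axes) of the 8 genes in the 3 comparisons, with bars for 95% intervals from the standard errors; filled red points were called higher, filled blue points lower, and open grey points did not pass an adjusted p of 0.05. Cldn11 lies farthest left in XY-KO minus XY-WT at -2.62, and Ocln has the widest bars.

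Dsc2 (ENSMUSG00000024331, chromosome 18, 20030633 to 20059554, minus strand) encodes desmocollin-2, a desmosomal cadherin. Derived levels were 5.48 CPM in XY-WT, 12.2 CPM in XY-KO and 17.5 CPM in XX-WT. XY-KO was 2.22-fold above XY-WT with a 95% interval of 1.71 to 2.90, a log2 change of 1.15 (SE 0.180), per the authors' deposited table. The ovary was above XY-WT by 1.67 (SE 0.173, limma adjusted p 3.76e-06) and XY-KO below the ovary at -0.52 (SE 0.148, limma adjusted p 0.0221), per the authors' deposited tables. The derived level of XY-KO again lay between those of the controls, and its distance from the ovary passed the test.

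Dsp (ENSMUSG00000054889, chromosome 13, 38151294 to 38198577, plus strand) encodes desmoplakin, which ties desmosomes to intermediate filaments. Unlike Dsc2 it was highest in the control testis, with derived levels of 78.8 CPM in XY-WT, 44.4 CPM in XY-KO and 55.8 CPM in XX-WT. The XY-KO change was -0.83 (SE 0.125), per the authors' deposited table, or 1.77-fold lower with a 95% interval of 1.48 to 2.13. The ovary was also below XY-WT, at -0.50 (SE 0.122, limma adjusted p 0.00749), per the authors' deposited table. XY-KO and XX-WT were not told apart by limma, with -0.33 in the authors' deposited table (95% interval -0.60 to -0.06, adjusted p 0.0889 over all genes).

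Jup (ENSMUSG00000001552, chromosome 11, 100368958 to 100397763, minus strand) encodes plakoglobin, a plaque protein of desmosomes and adherens junctions. Its derived levels were 28.5 CPM in XY-WT, 27.3 CPM in XY-KO and 16.8 CPM in XX-WT. The testes differed by -0.06 in the authors' deposited table, with a 95% interval of -0.46 to 0.34. The ovary was below XY-WT at -0.77 (SE 0.195, limma adjusted p 0.00954), and XY-KO was above the ovary by 0.70 (SE 0.196, limma adjusted p 0.0194), both in the authors' deposited tables. Of the 8 genes, Jup was the one called higher in XY-KO than in XX-WT. After removal of the trend with GC and length, the ovary's difference from XY-WT was -0.48 and no longer called (adjusted p 0.0913), and that between the testes was 0.23, now positive and still not called (adjusted p 0.601).

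Podxl (ENSMUSG00000025608, chromosome 6, 31519488 to 31563981, minus strand) encodes podocalyxin, a sialomucin of apical and vascular surfaces known from kidney podocytes, where it binds ezrin through NHERF proteins. Derived levels were 55.5 CPM in XY-WT, 127 CPM in XY-KO and 240 CPM in XX-WT. XY-KO was 2.29-fold above XY-WT with a 95% interval of 1.88 to 2.79, a log2 change of 1.20 (SE 0.135), per the authors' deposited table. The ovary exceeded XY-WT by 2.11 (SE 0.133, limma adjusted p 2.23e-08) and XY-KO was below the ovary at -0.92 (SE 0.131, limma adjusted p 0.000120), per the authors' deposited tables. Per kilobase of the longest transcript, derived levels of Podxl were 10.3, 23.6 and 44.6 CPM per kb in XY-WT, XY-KO and XX-WT, and those of Tjp1 were 27.1, 26.4 and 33.8 CPM per kb. By these derived values Tjp1 was the higher of the pair in XY-WT and Podxl in the ovary, and in XY-KO they were close. These values have no error and rest on the longest transcript, so the order of the pair was not tested in any group.

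**Figure D3:**
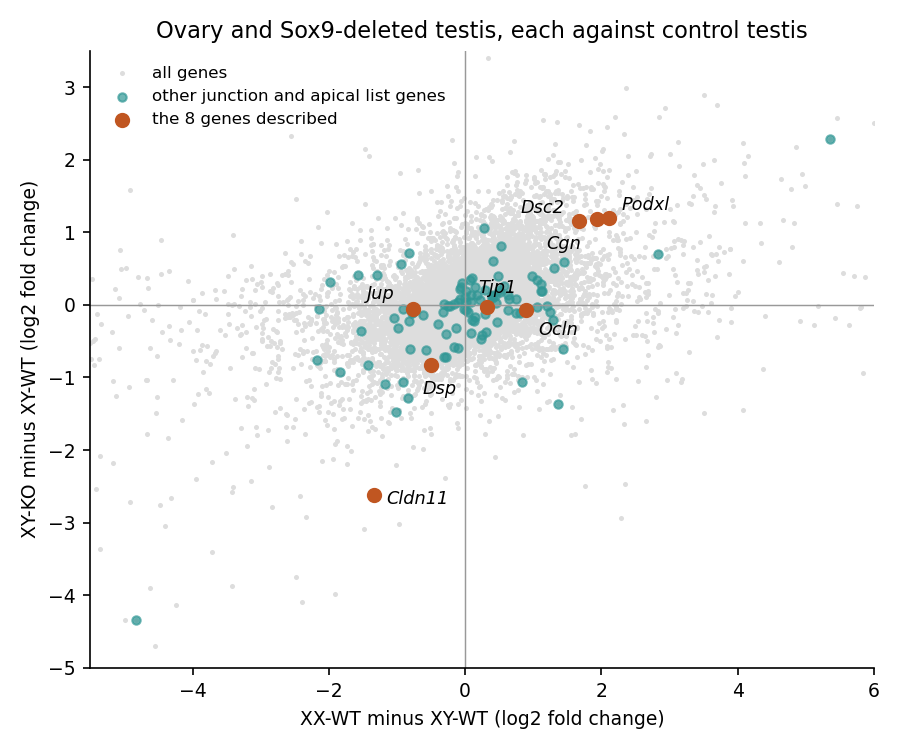
Each gene's log2 fold change in XX-WT against XY-WT (horizontal axis) and in XY-KO against XY-WT (vertical axis), for all genes (grey, with 45 outside the axes), the other genes of the junction lists (teal) and the 8 genes (orange, named); both axes share the XY-WT samples, so a slope is built in. Cgn, Dsc2 and Podxl lie together at upper right, Cldn11 at lower left below the other 7, and Jup, Tjp1 and Ocln near the horizontal line.

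Cell type markers were read beside these values. Over all genes, 0.699% were called higher and 1.57% lower in XY-KO against XY-WT. In XX-WT against XY-WT these shares were 10.9% and 12.4%. Beside the lower Cldn11 and Dsp of XY-KO, 5 of 10 Sertoli cell markers were called lower than in XY-WT and none higher, and their summed derived level was 674 CPM in XY-WT, 365 CPM in XY-KO and 102 CPM in XX-WT. Of 7 ovarian supporting cell markers 0 were called in that comparison by limma, with 2 at an unadjusted p under 0.05, and they summed to 32.7 CPM in XY-WT, 42.0 CPM in XY-KO and 364 CPM in XX-WT. Surface epithelium and mesothelium markers, cells with junctions of their own, had 0 of 8 called by limma (1 at an unadjusted p under 0.05) and sums of 106, 112 and 149 CPM in the same order. In XX-WT against XY-WT, 4 of these 8 were higher and 1 lower. Endothelial markers, of interest because vessels carry podocalyxin, had 0 of 14 called in XY-KO against XY-WT by limma (3 at an unadjusted p under 0.05) and sums of 243, 231 and 215 CPM. In XX-WT against XY-WT, 1 of these 14 was called higher and 3 lower, and their median log2 difference was -0.36.

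Mesonephric tubule and duct markers had 0 of 7 called in XY-KO against XY-WT by limma (3 at an unadjusted p under 0.05) and sums of 72.9, 94.5 and 229 CPM in XY-WT, XY-KO and XX-WT. In the ovary 6 of these 7 were higher than in XY-WT and 1 lower, and some, such as Emx2, are also expressed in the gonad itself. Germ cell markers had 0 of 7 called in XY-KO against XY-WT by limma (1 at an unadjusted p under 0.05), with sums of 369, 301 and 563 CPM. Beside the higher Cgn, Dsc2 and Podxl of XY-KO, 1 of 4 skeletal muscle genes, the myosin gene Myh8, was called higher, 3 had an unadjusted p under 0.05, the median log2 difference was 1.64, and the sums were 11.7, 37.1 and 41.2 CPM, while Myog and Myod1 were not among the genes tested. Fetal Leydig, macrophage and erythroid markers had 0 of 4, 0 of 6 and 0 of 6 called in XY-KO against XY-WT by limma (0, 0 and 1 at an unadjusted p under 0.05). Krt19, Cldn5 and Esam stand both in a marker list and in a junction list. The part of any of these cells in the values of the 8 genes was not tested.

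Partner genes came from lists called junction lists here, in which 106 of 155 genes were measured, the 8 included. Beside junction and apical proteins they hold intermediate filament genes, epithelial identity genes and transcription factors that repress epithelial genes elsewhere. Over the 98 others, 0 were called higher and 7 lower by limma in XY-KO against XY-WT (26 had an unadjusted p under 0.05). Of all genes, 0.699% were called higher and 1.57% lower there. The ovary had 20 of the 98 higher and 17 lower than XY-WT, beside 10.9% and 12.4% of all genes. XY-KO had 12 higher and 19 lower than the ovary, beside 9.16% and 9.11% of all genes. The same shares stand beside the counts of single lists below. The median log2 differences of the 98 were -0.02, 0.09 and -0.13, beside the medians over all genes given above. No gene of these lists other than Cgn, Dsc2 and Podxl was called higher in XY-KO than in XY-WT as deposited. The rises of Cgn, Dsc2 and Podxl were known when the members were chosen, so this describes the choice. After removal of the trend with GC and length, Ezr and Grhl3 were called higher too, and with p-values adjusted over the 3 comparisons together Ezr, Grhl3, Magi2 and Zeb2 were.

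**Figure D4:**
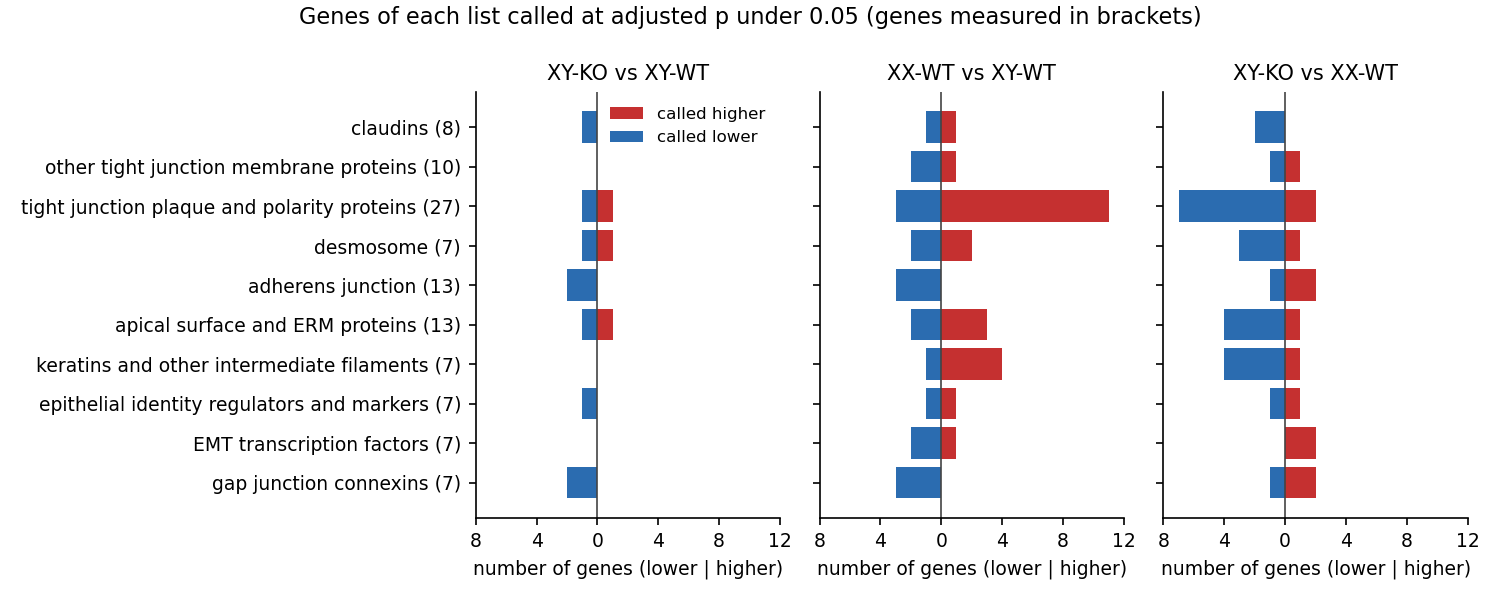
Number of genes of each junction list called higher (red, right) or lower (blue, left) at an adjusted p under 0.05 in the 3 comparisons, the 8 genes included and the number measured in brackets. In XY-KO against XY-WT no list has more than 1 gene called higher, and the longest bar, 11 genes, belongs to tight junction plaque and polarity proteins in XX-WT against XY-WT.

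Among claudins 8 of 22 were measured. Cldn11 was the only one called in XY-KO against XY-WT, and the list's median there was -0.42. Cldn6, an epithelial claudin of embryonic tissues, was higher in the ovary than in XY-WT at 1.37 (SE 0.472, limma adjusted p 0.0471), per the authors' deposited table, and lower in XY-KO than in the ovary at -2.74 (SE 0.614, adjusted p 0.00482). The first of these calls ended when p-values were adjusted over the 3 comparisons together (adjusted p 0.0648). Against XY-WT its XY-KO value was -1.37 with an SE of 0.693 in the authors' deposited table (adjusted p 0.30), an error too wide for a call. The derived XY-KO level of Cldn6 was -1.24 in log2 CPM, where the size of a change depends on the offset added before the logarithm. The endothelial claudin Cldn5 stood at -1.29 in XY-KO against XY-WT in the authors' deposited table (SE 0.421, limma adjusted p 0.126).

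Other membrane proteins of the tight junction had 0 of 10 called by limma in XY-KO against XY-WT, and 0 at an unadjusted p under 0.05. Jam2, a junctional adhesion molecule, was lower in the ovary than in XY-WT at -1.99 (SE 0.172, limma adjusted p 5.81e-07) and stood at 0.32 in XY-KO (adjusted p 0.277), per the authors' deposited tables. The coxsackievirus receptor Cxadr was at -0.62 in the ovary (adjusted p 0.0168) and the lipoprotein receptor relative Ildr2 at 0.46 (adjusted p 0.0124) by limma, per the authors' deposited table. Marveld2, tricellulin, and F11r, the junctional adhesion molecule JAM-A, were not called in either comparison with XY-WT, at 0.09 and 0.26 in XY-KO and 0.75 and 0.57 in XX-WT in the authors' deposited tables.

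Plaque and polarity proteins of the tight junction had 11 of 27 measured genes higher in the ovary than in XY-WT, Cgn and Tjp1 among them, and 3 lower, beside 10.9% and 12.4% of all genes, with a median of 0.32. The scaffold Magi2 was at 2.83 (SE 0.180, limma adjusted p 2.41e-08) and its relative Magi1 at 1.06 (SE 0.127, limma adjusted p 1.69e-05), per the authors' deposited table. Cgnl1, the cingulin relative, was at 0.64 in the ovary (SE 0.118, limma adjusted p 0.000908) but at 0.08 in XY-KO (SE 0.121, adjusted p 0.761), per the authors' deposited tables, while Cgn was at 1.93 and 1.18. In XY-KO against XY-WT the list had Cgn higher and 1 gene lower. The latter was Scrib, a basolateral polarity scaffold, at -1.09 in XY-KO (SE 0.194, limma adjusted p 0.00607) and -1.17 in the ovary (SE 0.192, adjusted p 0.000334), per the authors' deposited tables; its XY-KO call ended after removal of the trend with GC and length (-0.77, adjusted p 0.0617).

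Of the desmosome list 7 of 14 genes were measured. Dsg2, the desmoglein measured beside Dsc2, was at -0.22 in XY-KO (limma adjusted p 0.445) and 0.13 in the ovary (adjusted p 0.572), per the authors' deposited tables. The plakophilin Pkp2 was higher in the ovary at 0.74 (SE 0.175, limma adjusted p 0.00568) and at -0.11 in XY-KO (adjusted p 0.802), per the authors' deposited tables. Pkp4 was at -0.38 in XY-KO (limma adjusted p 0.111) and 0.31 in the ovary (adjusted p 0.0650), per the authors' deposited tables. The latter was called after removal of the trend with GC and length (0.40, adjusted p 0.0190). Against the ovary XY-KO was lower for Pkp4 at -0.69 (SE 0.117, limma adjusted p 0.000572) and for Pkp2 at -0.85 (SE 0.175, adjusted p 0.00267). Dsg2 was not called in any of the 3 comparisons, so no order of the groups can be read for it.

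Adherens junction genes had 2 of 13 lower in XY-KO and none higher. Nectin1, an adhesion molecule of the adherens junction, was at -1.06 (SE 0.205, limma adjusted p 0.0111) and the alpha-catenin Ctnna2 at -0.76 (SE 0.178, limma adjusted p 0.0361), per the authors' deposited table, and neither was called after removal of the trend with GC and length (adjusted p 0.0645 and 0.0637). In the ovary Ctnna2 was at -2.18, Ctnna3 at -1.57 and Nectin1 at -0.91, each called lower by limma, per the authors' deposited table. E-cadherin, Cdh1, which germ cells of the gonad also express, was at -0.71 in XY-KO (SE 0.272, limma adjusted p 0.177) and N-cadherin, Cdh2, at -0.12 (adjusted p 0.624), per the authors' deposited table.

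Among apical surface proteins 13 of 16 were measured, and Podxl was the 1 called higher in XY-KO. Eps8, an actin-capping protein of microvilli, was lower at -0.93 in XY-KO (SE 0.118, limma adjusted p 0.000416) and -1.83 in the ovary (SE 0.123, adjusted p 4.23e-08), per the authors' deposited tables, the opposite order to Podxl. Ezr, ezrin, was at 0.60 in XY-KO (SE 0.167) without passing the limma test (adjusted p 0.0744), per the authors' deposited table, and passed after removal of the trend with GC and length (0.74, adjusted p 0.0361). Slc9a3r1, the NHERF1 adaptor between podocalyxin and ezrin, was at -0.41 (limma adjusted p 0.290), and the podocalyxin relative Podxl2 at 0.01 (adjusted p 0.993), per the authors' deposited table. In the ovary Rab11fip2, a recycling endosome protein, was at 1.12 and the microvillar membrane protein Prom1 at 1.13, both called higher by limma, per the authors' deposited table.

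Intermediate filament genes, which desmosomes anchor, had 0 of 7 called in XY-KO against XY-WT by limma (2 at an unadjusted p under 0.05). Between the control gonads 4 were higher in the ovary and 1 lower. Krt18 was at 1.43 (SE 0.316, limma adjusted p 0.00353), Krt8 at 0.83 (SE 0.266, adjusted p 0.0330) and Krt7 at 1.21 (adjusted p 0.00296), while Vim, vimentin, was at -0.82 (adjusted p 0.000117), per the authors' deposited table. Krt20 was at 5.35 in the ovary (SE 0.718, limma adjusted p 4.95e-05), per the authors' deposited table, from a derived XY-WT level of -3.51 in log2 CPM, where the value depends on the offset added before the logarithm. Against the ovary XY-KO was lower for Krt8 at -1.90 (SE 0.324, limma adjusted p 0.000569) and for Krt18 at -2.04 (SE 0.344, adjusted p 0.000521), per the authors' deposited table. Krt19 was not called in any of the 3 comparisons.

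Epithelial identity genes had 1 of 7 lower in XY-KO. It was Spint2, an inhibitor of epithelial serine proteases, at -1.47 (SE 0.234, limma adjusted p 0.00244), and at -1.01 in the ovary (adjusted p 0.00271), per the authors' deposited tables. Grhl1, a grainyhead factor known to drive desmosomal cadherin genes in skin, was at 0.60 in XY-KO (SE 0.310, limma adjusted p 0.313) and 1.45 in the ovary (SE 0.284, adjusted p 0.00146), per the authors' deposited tables. Epcam, an adhesion molecule of epithelia and germ cells, was at -0.60 in XY-KO (limma adjusted p 0.186) and -0.11 in the ovary (adjusted p 0.767), per the authors' deposited tables. Grhl2 was not among the genes tested.

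The genes nearest in pattern were sought for the 4 members that changed at least 2-fold in some comparison, by the distance between the XY-KO and XX-WT changes from XY-WT, over 3 groups. Only genes at or above the median expression of 3.19 log2 CPM were searched, without those with symbols of the Gm or Rik kind. For Cgn and for Podxl they were the same pair. Zbtb7c, at 0.90 in XY-KO and 2.17 in XX-WT in the authors' deposited tables, lay at distances of 0.37 and 0.30 log2 units, and the heparan sulfatase Sulf1, at 0.89 and 2.23, lay at 0.41 and 0.32. For Dsc2, Gca lay at a distance of 0.28. The closest to Cldn11 among the genes searched were Trank1 at 0.88 and AU015836 at 1.09 log2 units. Cldn11 itself, at a mean of 2.695 log2 CPM, lies below that expression limit, so genes at its own level were not searched. With 3 groups, likeness rests on a pair of differences per gene and is a description.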

How the data were processed

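RNA of each gonad sample was purified on columns, amplified with SPIA chemistry that leaves out ribosomal RNA, and read from both ends, per the labels' protocols. The submitters' processing notes name the genome GRCm38, limma 3.24.0, HTSeq 0.6.1p1, TopHat2 2.0.8 and Trimmomatic 0.30; the gene filter and weights are not given in the sources used here. Each deposited table compares a pair of groups over 15300 genes. Per the file headers, its columns are the authors' log2 fold change and mean log2 expression, the authors' limma scores (moderated t and log-odds), and the authors' p-value with its Benjamini-Hochberg adjusted p-value. Tables with no value per sample give no depth, counting interval or detection floor.

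From these, the SE was obtained by dividing each fold change by its t, and 95% intervals used the 15.27 degrees of freedom at which t gave the deposited p. The 3 fold changes added up within 0.005. Group levels assumed equal weight of groups and took the mean log2 expression as log2 CPM. Symbols were found for 15192 genes in GENCODE M21, the source of positions and of length and GC of the longest transcript. Promoter windows are from RefSeq on GRCm38.p6. The trend with GC content and length was a robust regression on polynomials of degree 3, fitted over genes at or above the median expression of 3.19 log2 CPM. The adjustment and trend steps were run on simulated data with planted 2-fold changes and a planted linear trend with GC content. The outcome is not reported here. That simulation had no trend with length and independent errors between genes, so it does not cover the setting of these data. A call is an adjusted p under 0.05 over all genes of a table.

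The members and gene lists were chosen with earlier results of these data known. Genes named were the 8 members; 18 partners fixed by name, of which 17 were measured; up to 3 others of each list with the smallest adjusted p under 0.05 in each comparison with XY-WT; and the 2 genes nearest in pattern to each member that changed 2-fold. Some genes that this rule names are not reported here. Cldn5, Grhl3, Myh8 and Emx2 were named after their values were seen. The tools matplotlib 3.10.9, statsmodels 0.14.6, scipy 1.17.1, pandas 2.3.3, numpy 2.4.6 and Python 3.11.15 were used.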

Additional observations from a re-analysis of the deposited data

How the results depend on the processing

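No paired analysis was possible because the tables give no value per sample; for the same reason no replicate could be left out and neither alternative was run. Counts are given as higher and lower, in the order XY-KO against XY-WT, XX-WT against XY-WT, XY-KO against XX-WT. The share of all genes called was not worked out under these alternatives, so these counts have no base rate beside them. Member counts of the first comparison also describe the choice of members, and those of the other comparisons share samples with it. At an adjusted p under 0.01 the 8 members gave 3 and 2, 3 and 3, 0 and 3 calls, and the 106 junction list genes 3 and 6, 15 and 18, 10 and 16. With a 2-fold limit the members gave 3 and 1, 3 and 1, 0 and 1, and the lists 3 and 5, 13 and 13, 6 and 7. With Bonferroni adjustment the members gave 1 and 1, 3 and 0, 0 and 0, and the lists 1 and 3, 7 and 6, 3 and 1. Over genes at or above median expression, where Cldn11, Ocln and other low genes were not tested, the members gave 3 and 1, 4 and 2, 1 and 4, and the lists 3 and 5, 16 and 12, 8 and 14. Adjusted over the 3 comparisons together, the lists gave 7 and 11 in XY-KO against XY-WT. With the GC and length trend removed they gave 5 and 6 there, and 9 of the 12 deposited calls were kept; the cause was not tested. Subtracting the median of all genes changed no count. In the 250 bases before the start, CACCTG was in 1 member window in place of 3, a shorter window by construction.

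Of 162 values of single members under these alternatives, 132 kept direction and side of the threshold and 29 kept direction but lost the call. The 1 that turned was Jup in XY-KO against XY-WT, 0.23 with the trend removed and not called either way. The calls of Cldn11 and Podxl in XY-KO against XY-WT held under every alternative in which the gene was tested. Under Bonferroni those of Cgn (adjusted p 0.0543), Dsc2 (0.164) and Dsp (0.115) ended. Since values of this comparison chose members, calls that held describe the choice and carry no weight of their own. The depth is unknown, and Ocln had the widest errors.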

Other observations

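Gap junction connexins, which couple neighbouring cells, had 2 of 7 measured genes lower in XY-KO than in XY-WT and none higher. Gjb2, connexin 26, had derived levels of 8.76 CPM in XY-WT, 0.432 CPM in XY-KO and 0.309 CPM in XX-WT. It fell by 4.34 on the log2 scale in XY-KO (SE 0.462, limma adjusted p 8.63e-05) and stood at -4.82 in the ovary (SE 0.492, adjusted p 3.29e-06) in the authors' deposited tables. XY-KO and XX-WT differed by 0.48 for this gene (SE 0.645, limma adjusted p 0.678) in the authors' deposited table. Its derived levels there were -1.21 and -1.69 in log2 CPM, where the size of a change depends on the offset added before the logarithm. Gja1, connexin 43, a main connexin of Sertoli cells, fell by 0.83 in XY-KO (SE 0.171, limma adjusted p 0.0169) and stood at -1.43 in the ovary (SE 0.171, adjusted p 1.62e-05) in the authors' deposited tables. Gja5, connexin 40, known from arterial endothelium, was at -0.05 in XY-KO (limma adjusted p 0.934) and fell by 2.15 in the ovary (SE 0.348, adjusted p 0.000286) in the authors' deposited tables.

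Transcription factors that repress epithelial genes elsewhere had 0 of 7 called in XY-KO against XY-WT by limma, with 2 at an unadjusted p under 0.05. Zeb2 was at 0.41 in XY-KO (SE 0.117, limma adjusted p 0.0840) and fell by 1.29 in the ovary (SE 0.116, adjusted p 8.36e-07) in the authors' deposited tables. Twist1 fell by 1.53 in the ovary (adjusted p 0.000551) and Prrx1 was higher there at 0.99 (adjusted p 0.00348), by limma in the authors' deposited table.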
